A study of Homo sapiens with 18 samples.

Results

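The genes described here are 10 regulators of the step from the G1 phase into DNA synthesis: the cyclins CCND1, CCND3, CCNE1 and CCNE2, the kinases CDK2, CDK4 and CDK6, the inhibitors CDKN1A and CDKN1B, and the retinoblastoma gene RB1. They were chosen by gene symbol, by a rule that uses no measured value, though with earlier results of these data known, and they make up 10 of the 23500 rows of the RNA-seq table. Each symbol had its own row. The ERα, H3K4me1 and SP1 peaks taken with them were those within 100 kb of the annotated ends of each gene.

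D-type cyclins activate CDK4 and CDK6, and E-type cyclins activate CDK2. Both complexes phosphorylate RB1, which otherwise holds E2F transcription factors inactive, and CDKN1A (p21) and CDKN1B (p27) bind and restrain cyclin-kinase complexes. In ER+ breast cancer cells estrogen drives this step largely through cyclin D1, and drugs that inhibit CDK4 and CDK6 are used together with endocrine therapy. MLL3, the product of KMT2C, is a methyltransferase that places a single methyl group on lysine 4 of histone H3 (H3K4me1), a mark of enhancers.

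All samples were ZR751 cells, an established ER+ human breast cancer cell line, grown in RPMI with serum and insulin. ZR751shMLL3 cells stably carried a lentiviral short hairpin RNA against MLL3, and ZR751shLucif control cells carried one against luciferase. Both lines were sorted for the GFP of the vector, so each is 1 transduced population rather than a panel of clones. RNA, H3K4me1, ERα and SP1 were each measured in 2 libraries per line. The labels do not tie these libraries to separate transductions, so p-values measure only the spread between these libraries. No set of reads per gene could be recovered from the RNA values, and the depth behind a gene's value is unknown.

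The targeted gene was examined first. KMT2C was at 1.07 and 2.69 FPKM (fragments scaled to transcript length and library size) in the ZR751shMLL3 libraries and at 2.34 and 6.77 FPKM in the ZR751shLucif libraries. The mean was lower with the hairpin, but the lines overlapped. The log2 fold change, always given as ZR751shMLL3 minus ZR751shLucif on the log2(FPKM + 0.5) scale, was -1.02 (SE 0.54, adjusted p = 0.629, limma with Benjamini-Hochberg adjustment). With 1 library left out it ran from -0.35 (without ZR751shLucif replicate 2) to -1.70 (without ZR751shLucif replicate 1). The knockdown was therefore not separated from the spread in these RNA libraries. The authors also checked it by qPCR, a separate measurement that is not part of the data used here. ZR751shLucif replicate 1 stood apart, with a correlation of 0.900 to 0.907 with the other libraries over the genes tested, against 0.947 to 0.969 among those. Fold changes followed the GC content of the transcripts (Spearman's rho 0.524 across 10609 genes, which are not independent replicates), and the part of library preparation in this was not tested. The 8 luminal epithelial markers were present in every library, with summed levels of 10896 and 9413 FPKM in ZR751shMLL3 and 12536 and 4944 FPKM in ZR751shLucif. The 3 endothelial markers stayed below 1 FPKM in all libraries, as did 4 of 5 basal or mesenchymal, 3 of 4 leukocyte and 2 of 4 fibroblast markers, while COL3A1 had no row of its own. Those that passed the filter used for the test were ACTA2, COL1A1 and CD68, and for none of them did the lines separate. In bulk RNA fewer cells of a type and less RNA per cell cannot be told apart.

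None of the 10 G1/S genes passed the test of a change in RNA level between the lines. Of the 10, 9 passed a filter on level, a mean log2(FPKM + 0.5) above 1, and CDK6 did not. The 9 log2 fold changes ran from -0.34 for CCNE2 to 0.35 for CCND3, with SEs of 0.26 to 0.35 and adjusted p of 0.686 to 0.977 (limma with Benjamini-Hochberg adjustment), and 0 of the 9 had an unadjusted p under 0.05. Over all 11134 genes tested 0.00898% were called at an adjusted p of 0.05 (0 higher and 1 lower), and 7.98% had an unadjusted p under 0.05. The median log2 fold change was -0.04 for the 9 genes and -0.10 for all genes tested. The half-widths of the 95% confidence intervals were 0.63 to 0.85 on the log2 scale, and across the 9 genes the intervals reached as far as 1.97-fold higher and 2.08-fold lower, so changes within them are not excluded.

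**Figure D1:**
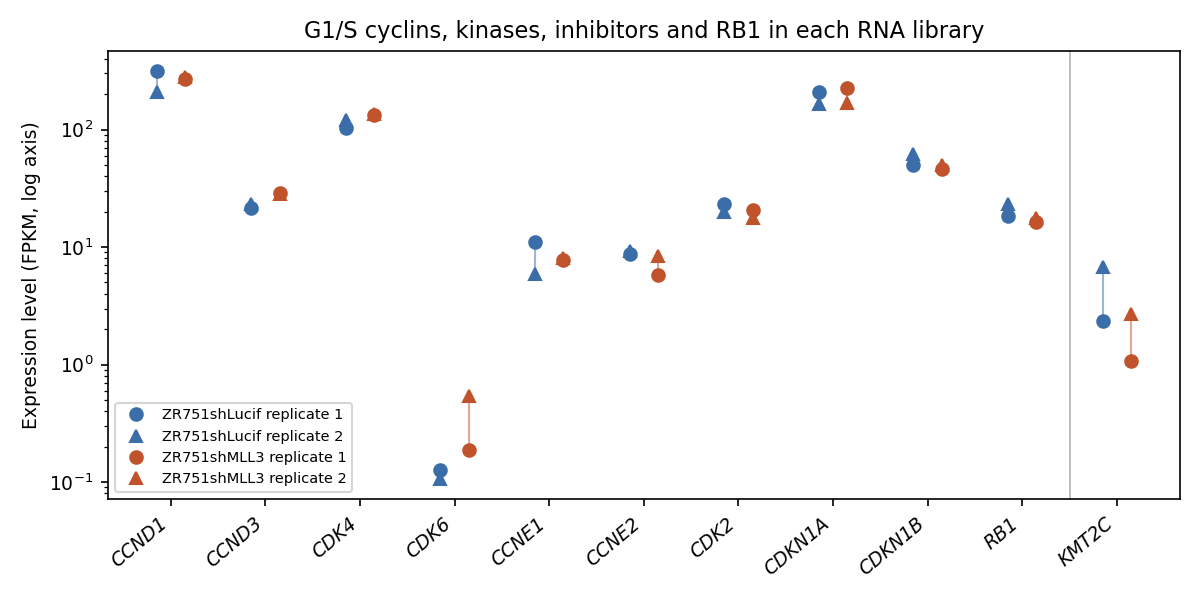
Expression level of the 10 G1/S genes and of KMT2C in each RNA library (FPKM, log axis), with 1 symbol per replicate and a thin line joining the 2 libraries of a line. CCND1 and CDKN1A lie above 160 FPKM in all 4 libraries and CDK6 lies below 1 FPKM in all 4, and the lines overlap for CCND1, CCNE1, CDK2, CDKN1A, CDKN1B and KMT2C.

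Among the D-type cyclins, CCND1 was the most abundant transcript of the whole set. Its level was 270 and 279 FPKM in ZR751shMLL3 and 314 and 207 FPKM in ZR751shLucif. Both knockdown libraries lay between the control libraries, which themselves spanned more than the knockdown pair. The means were 275 ± 6.48 and 261 ± 75.3 FPKM (SD, n = 2 each). Its log2 fold change was 0.11 (95% confidence interval -0.64 to 0.85, adjusted p = 0.917, limma), and it became -0.26 once the trend with transcript GC content was removed and -0.19 without ZR751shLucif replicate 2.

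CCND3, cyclin D3, was at 29.0 and 28.4 FPKM in ZR751shMLL3 and at 21.7 and 23.2 FPKM in ZR751shLucif. The knockdown libraries were both above the controls. Its log2 fold change of 0.35 (SE 0.26) did not pass the test (adjusted p = 0.686, limma), and it was 0.08 with the GC trend removed. CCND1 exceeded CCND3 by 9.33-fold and 9.82-fold in ZR751shMLL3 and by 14.5-fold and 8.92-fold in ZR751shLucif, ratios of FPKM levels that overlapped between the lines.

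CDK4, the main kinase partner of D-type cyclins in these libraries by RNA level, was at 134 and 134 FPKM in ZR751shMLL3 and at 103 and 122 FPKM in ZR751shLucif. Both knockdown libraries were above both controls. The log2 fold change was 0.26 (SE 0.27, adjusted p = 0.760, limma) and 0.06 with the GC trend removed. CDK6, the other D-type partner, was at 0.186 and 0.542 FPKM in ZR751shMLL3 and at 0.128 and 0.106 FPKM in ZR751shLucif. Its knockdown libraries were the higher ones, but all 4 values were too low to enter the test. The FPKM level of CDK4 was 720 and 248 times that of CDK6 in ZR751shMLL3 and 808 and 1146 times in ZR751shLucif.

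The E-type cyclins were far less abundant. CCNE1 was at 7.71 and 8.10 FPKM in ZR751shMLL3 and at 11.1 and 5.96 FPKM in ZR751shLucif. As with CCND1, the controls enclosed the knockdown libraries, and ZR751shLucif replicate 1 was the highest. The log2 fold change was -0.04 (95% confidence interval -0.89 to 0.81, adjusted p = 0.977, limma), and it became 0.38 without ZR751shLucif replicate 1.

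CCNE2 was at 5.78 and 8.34 FPKM in ZR751shMLL3 and at 8.70 and 9.18 FPKM in ZR751shLucif. The knockdown libraries were below the controls, and replicate 2 of ZR751shMLL3 came close to them. Its difference in log2 level was -0.34 (SE 0.29, adjusted p = 0.714, limma) and -0.05 with the GC trend removed. Neither E-type cyclin was consistently the more abundant, since the FPKM level of CCNE1 exceeded that of CCNE2 in 2 of 4 libraries.

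CDK2, the partner of the E-type cyclins, was at 20.8 and 17.8 FPKM in ZR751shMLL3 and at 23.0 and 19.7 FPKM in ZR751shLucif. The lines overlapped, and the log2 fold change was -0.14 (95% confidence interval -0.80 to 0.52, adjusted p = 0.868, limma). CDK4 was 6.43 and 7.55 times as abundant as CDK2 in ZR751shMLL3 and 4.49 and 6.18 times in ZR751shLucif. This ratio of FPKM levels was higher in both knockdown libraries than in both controls. With 2 libraries against 2 an exact permutation test cannot give a two-sided p below 0.333, and no test of the ratio was made.

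Of the inhibitors, CDKN1A was at 225 and 169 FPKM in ZR751shMLL3 and at 208 and 166 FPKM in ZR751shLucif. Replicate 1 was the higher library in both lines, and the lines overlapped. The log2 fold change was 0.07 (95% confidence interval -0.65 to 0.79, adjusted p = 0.947, limma), with -0.19 once the GC trend was removed. It was -0.14 without ZR751shMLL3 replicate 1 and -0.09 without ZR751shLucif replicate 2.

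CDKN1B was at 46.0 and 50.2 FPKM in ZR751shMLL3 and at 49.5 and 61.8 FPKM in ZR751shLucif. The second knockdown library lay between the controls. Its difference in log2 level was -0.20 (SE 0.28, adjusted p = 0.814, limma) and 0.06 with the GC trend removed. CDKN1A exceeded CDKN1B in every library, by 4.90-fold and 3.36-fold in ZR751shMLL3 and by 4.20-fold and 2.68-fold in ZR751shLucif.

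RB1, the shared substrate, was at 16.3 and 17.7 FPKM in ZR751shMLL3 and at 18.4 and 23.3 FPKM in ZR751shLucif. Both knockdown libraries were below both controls, by little in the case of the first control. The log2 fold change was -0.28 (95% confidence interval -0.95 to 0.39, adjusted p = 0.752, limma) and 0.00466 with the GC trend removed.

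Counting direction alone, CCND3 and CDK4 were higher in both knockdown libraries, CCNE2 and RB1 were lower in both, and the other 5 tested genes overlapped. Among all genes tested 17.6% were higher and 25.3% were lower in this sense, so 2 of 9 in each direction was near the background.

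**Figure D2:**
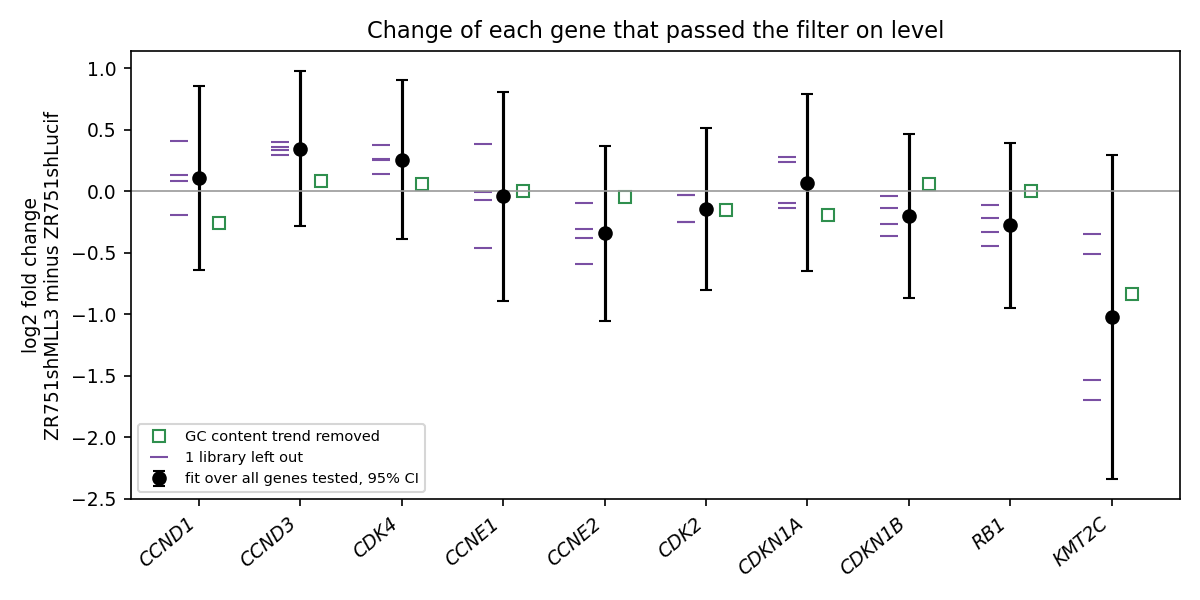
Log2 fold change of the 9 G1/S genes that passed the filter and of KMT2C, ZR751shMLL3 minus ZR751shLucif, with 95% confidence intervals from the fit over all genes tested (points and bars), the values with 1 library left out (dashes) and with the GC trend removed (open squares). Every interval includes 0, the squares of CCND1, CDKN1A and CDKN1B lie on the other side of 0 from their points, and those of CCNE1 and RB1 lie barely above 0.

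By FPKM level, averaged over the 4 libraries, the genes stood in the order CCND1 (268), CDKN1A (192), CDK4 (123), CDKN1B (51.9), CCND3 (25.6), CDK2 (20.3), RB1 (18.9), CCNE1 (8.21), CCNE2 (8.00) and CDK6 (0.240). Each gene was above the next in 4 of 4 libraries, except that CCND3 was above CDK2 and CDK2 above RB1 in 3 of 4, and CCNE1 above CCNE2 in 2 of 4. Those 3 neighbouring pairs did not differ beyond their spread. Among the genes tested CCND1 ranked between the 96.9 and 97.6 percentile of level in each library, CDKN1A between 95.5 and 96.9, and CDK4 between 90.7 and 94.5. Abundant cyclin D1, CDK4 and p21 transcripts stood beside scarce E-type cyclins and almost no CDK6 in both lines.

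The wider pathway was examined with 4 lists. The values of list genes are given without removal of the GC trend, which fold changes followed across genes, and its part in them was not tested. Of 32 other G1/S regulators, 27 passed the filter, 0 passed the adjusted p in either direction, and the median log2 fold change was -0.20. CDKN1C (p57), another inhibitor of the family of CDKN1A and CDKN1B, had the highest value in this list. It was at 3.69 and 3.55 FPKM in ZR751shMLL3 and at 1.22 and 0.941 FPKM in ZR751shLucif, with both knockdown libraries well above both controls. Its log2 fold change of 1.39 (SE 0.27) had an unadjusted p of 0.00182 and did not pass adjustment over all genes (adjusted p = 0.362, limma). Of the 27 genes past the filter, CDKN1C alone separated upward and 9 separated downward, where 17.6% and 25.3% of all genes tested did so. E2F2, a transcription factor held by RB1, had a log2 fold change of 0.42 (adjusted p = 0.695, limma).

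The lowest values in that list belonged to CDK7 and CDKN2A. CDK7, part of the kinase that activates other cyclin-dependent kinases, was at 17.1 and 17.0 FPKM in ZR751shMLL3 and at 54.0 and 19.2 FPKM in ZR751shLucif. The library ZR751shLucif replicate 1, was far above the other 3, and the log2 fold change was -0.90 (adjusted p = 0.629, limma). CDKN2A, which encodes the CDK4 and CDK6 inhibitor p16, was at 12.89 and 12.97 FPKM against 27.3 and 15.5 FPKM (log2 fold change -0.65, adjusted p = 0.629, limma). Transcript GC content was 62.9% for CDKN1C and 53.4% for E2F2, against 42.8% for CDK7 and 61.3% for CDKN2A.

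Genes that E2F factors drive at the start of replication were split evenly in direction. All 28 passed the filter, 0 passed the adjusted p, 7 separated upward and 7 downward (17.6% and 25.3% of all genes tested), and the median log2 fold change was -0.03. TK1, thymidine kinase, was at 176 and 122 FPKM in ZR751shMLL3 and at 70.0 and 98.5 FPKM in ZR751shLucif (log2 fold change 0.81, adjusted p = 0.613, limma). MYBL2, a transcription factor of late G1, had a value of 0.46 (adjusted p = 0.659, limma). RRM2, a subunit of ribonucleotide reductase, and DBF4, the activator of the CDC7 kinase, lay at the other end with -0.54 and -0.62. Transcript GC content was 61.1% for TK1 and 60.3% for MYBL2, against 45.8% for RRM2 and 39.0% for DBF4.

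The 16 G2/M genes, which mark dividing cells, had a median log2 fold change of -0.10, the same as all genes tested, and 15 of 16 overlapped between the lines. Their summed level was 1414 and 863 FPKM in ZR751shMLL3 and 978 and 1580 FPKM in ZR751shLucif. MKI67, the proliferation antigen Ki-67, was at 29.5 and 24.2 FPKM in ZR751shMLL3 and at 13.4 and 39.1 FPKM in ZR751shLucif, so the controls enclosed the knockdown. The log2 fold changes of CDC20, TPX2 and PLK1, which act in mitosis, were 0.10, -0.40 and -0.50. Transcript GC content was 48.3% for MKI67 and 57.1% for CDC20, against 46.7% for TPX2 and 57.1% for PLK1.

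CDKN1A is a classical target of p53, and 20 other p53-induced genes were read beside it. All 20 passed the filter, 0 passed the adjusted p, 3 separated upward and 9 downward (17.6% and 25.3% of all genes tested), and the median log2 fold change was -0.19. BTG2, an inhibitor of proliferation, was at 26.4 and 18.9 FPKM in ZR751shMLL3 and at 46.6 and 43.7 FPKM in ZR751shLucif (log2 fold change -0.998, adjusted p = 0.518, limma). GADD45A, a stress-response gene, had a value of -0.86 (adjusted p = 0.620, limma), and the lowest knockdown library was at 6.90 FPKM. FDXR, a mitochondrial reductase, was at 33.0 and 33.5 FPKM against 23.0 and 21.9 FPKM (0.56, adjusted p = 0.629, limma), and BBC3, which promotes apoptosis, had a value of 0.58.

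**Figure D3:**
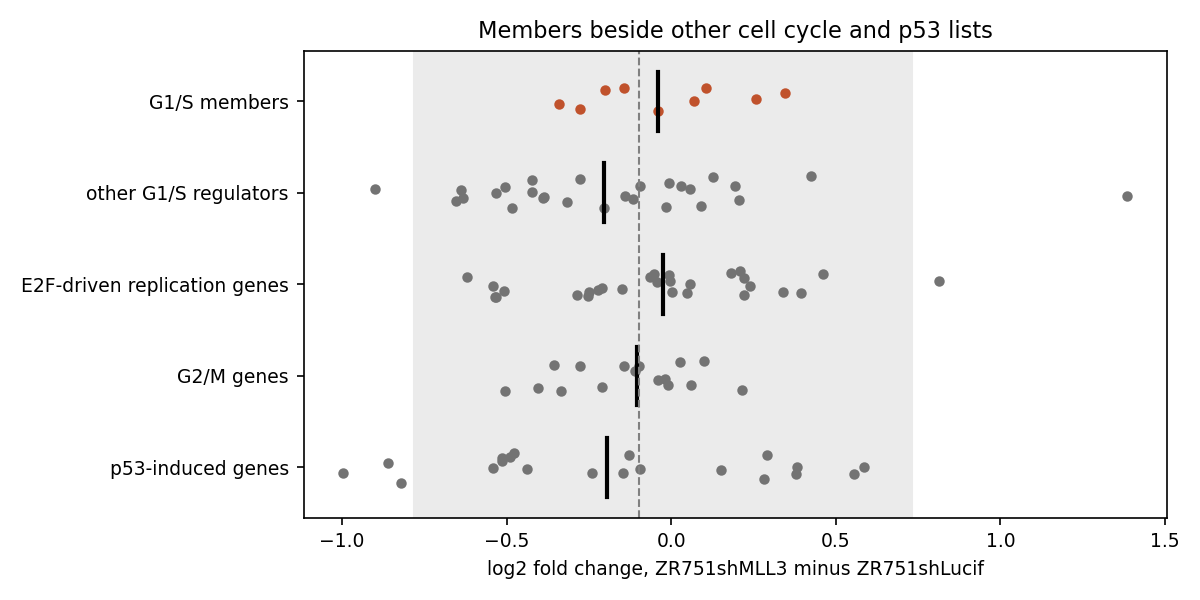
Log2 fold change, ZR751shMLL3 minus ZR751shLucif, of every gene that passed the filter in the G1/S set and in 4 wider lists (points), with each median as a black bar. The grey band spans the 5th to 95th percentile of all genes tested, -0.78 to 0.73, and the dashed line is their median, -0.10. CDKN1C (1.39), TK1 (0.81), SESN1 (-0.82), GADD45A (-0.86), CDK7 (-0.90) and BTG2 (-0.998) lie outside the band, and all 9 G1/S points lie within it.

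Chromatin around the 10 genes was then compared. Peaks were called by the authors in each library separately. A peak was counted as reproducible in a line where it overlapped between the 2 replicate lists and passed a limit. That limit was on the irreproducible discovery rate (IDR), the expected share of irreproducible peaks among those kept at it. The limits for ERα and SP1 were far looser than that for H3K4me1, so reproducible is a weaker label for their peaks. Across the genome this gave 32615 H3K4me1 peaks in ZR751shLucif and 8775 in ZR751shMLL3, 1265 and 1396 ERα peaks, and 527 and 1953 SP1 peaks. Overlapping peaks were not joined, and the 32615 H3K4me1 peaks formed 24740 separate regions.

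Fewer reproducible H3K4me1 peaks lay near the G1/S genes in the knockdown line, 10 against 38 in the control line. RB1 had 10 in ZR751shLucif and 2 in ZR751shMLL3, CCND1 had 7 and 2, CDK4 had 7 and 2, CCNE2 had 6 and 3, and CDK6 had 4 and 1. CCND3 had 2, CDK2 had 1 and CDKN1B had 1 in ZR751shLucif, with 0 in ZR751shMLL3. The CCND3 peaks lay 180172 and 195006 bp before its canonical start, and the CDKN1B peak 130075 bp before its own. They are counted because longer transcripts start nearer to them. CCNE1 and CDKN1A had 0 in both lines. Joined into regions, the counts near the set were 29 and 10.

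Fewer peaks at 8 of 10 genes was near the background. Of 21508 genes with a position, 53.7% had fewer in ZR751shMLL3 and 3.58% had more, and among the 12583 genes with at least 1 peak in ZR751shLucif 91.8% had fewer. All reproducible H3K4me1 peaks were 3.72 times as many in ZR751shLucif as in ZR751shMLL3, and those near the G1/S genes 3.8 times as many. The set held 0.117% of the peaks of ZR751shLucif and 0.114% of those of ZR751shMLL3.

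**Figure D4:**
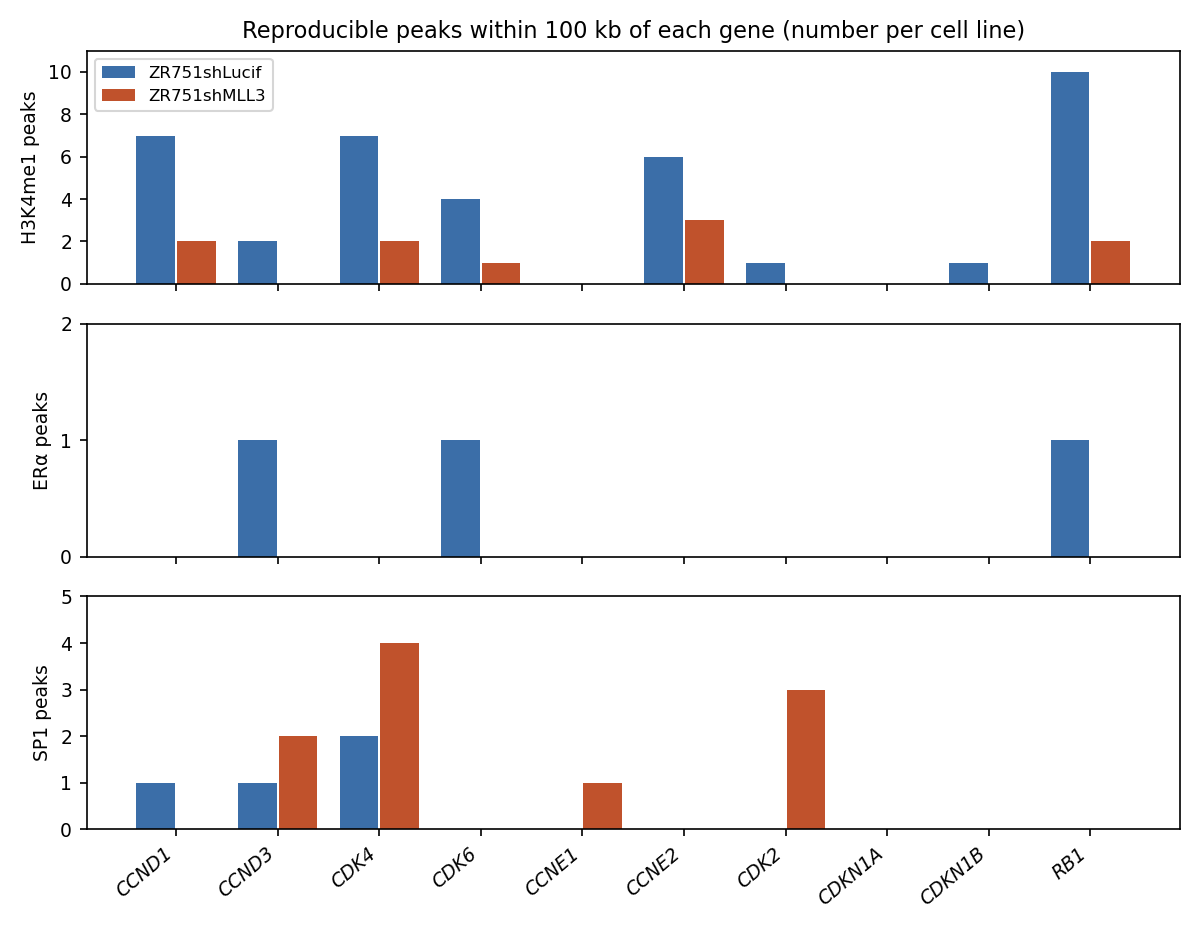
Number of reproducible H3K4me1, ERα and SP1 peaks within 100 kb of each G1/S gene, with 1 bar per cell line and no error bar, since each count already combines 2 libraries. H3K4me1 bars are lower in ZR751shMLL3 at 8 of 10 genes, all 3 ERα peaks are in ZR751shLucif, and 10 of the 14 SP1 peaks are in ZR751shMLL3. Both SP1 lists of ZR751shLucif held 0 peaks at a false discovery rate of 0.01 or less.

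The single libraries showed the same order with more scatter. At a false discovery rate (FDR) of 0.01 or less, 220 and 247 H3K4me1 peaks lay near the set in ZR751shLucif and 33 and 128 in ZR751shMLL3. RB1 had 41 and 51 of these in the control libraries and 9 and 26 in the knockdown libraries. CDKN1A, which had no reproducible peak, had 14 and 16 in the controls and 0 and 3 in the knockdown.

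These counts follow the total of each library, which was 141158 and 192201 in ZR751shLucif and 28599 and 109586 in ZR751shMLL3. As a share of the library's peaks, the set had 0.156% and 0.129% in ZR751shLucif and 0.115% and 0.117% in ZR751shMLL3. The difference in the mean share was -0.0261 percentage points, with both knockdown libraries below both controls (p = 0.333, exact two-sided permutation test, the smallest this design allows). Among the 20000 top-ranked peaks of each library it was -0.025 percentage points (p = 0.333, exact permutation test).

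The positions of the H3K4me1 peaks differed from gene to gene. At CCND1 (chr11:69455924-69469242, plus strand, GRCh37), a pair of overlapping ZR751shLucif peaks had summits 5313 and 5111 bp before the start of the canonical transcript, and ZR751shMLL3 had an overlapping peak at 5392 bp before it. A second cluster in ZR751shLucif, 14048 to 14432 bp after the start and within an intron of LTO1, had no overlapping reproducible peak in ZR751shMLL3, whose other peak lay at 12529 bp, in an exon shared by CCND1 and LTO1.

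CDK4 (chr12:58141510-58149796, minus strand) was the gene with H3K4me1 closest to its start in both lines. The 3 ZR751shLucif summits lay 1402 to 1659 bp before the canonical start, inside an intron of a longer CDK4 transcript, and ZR751shMLL3 had an overlapping summit at 929 bp before it. The other nearby ZR751shLucif peaks, 6293 to 9594 bp after the start, were in introns of the neighbour TSPAN31.

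At CDK6 (chr7:92234235-92465887, minus strand), which was nearly silent, the best H3K4me1 peak lay between genes, 97144 bp before the start. It ranked 2621 and 1583 in the ZR751shLucif lists, and an overlapping peak in ZR751shMLL3 ranked 13031 and 1691. RB1 (chr13:48877880-49173572, plus strand) had 8 of its 10 ZR751shLucif peaks within this annotated span, the nearest 1657 bp after the start. The RefSeq gene is shorter, 178140 bp, and the peaks 208123 to 282374 bp after the start lie beyond its end. The pair at 282166 and 282374 bp overlapped a ZR751shMLL3 peak at 281620 bp. These are counted only through the longer annotation. In all, 10 of the 38 ZR751shLucif peaks overlapped a reproducible ZR751shMLL3 peak, and in the other direction 5 of 10 did.

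**Figure D5:**
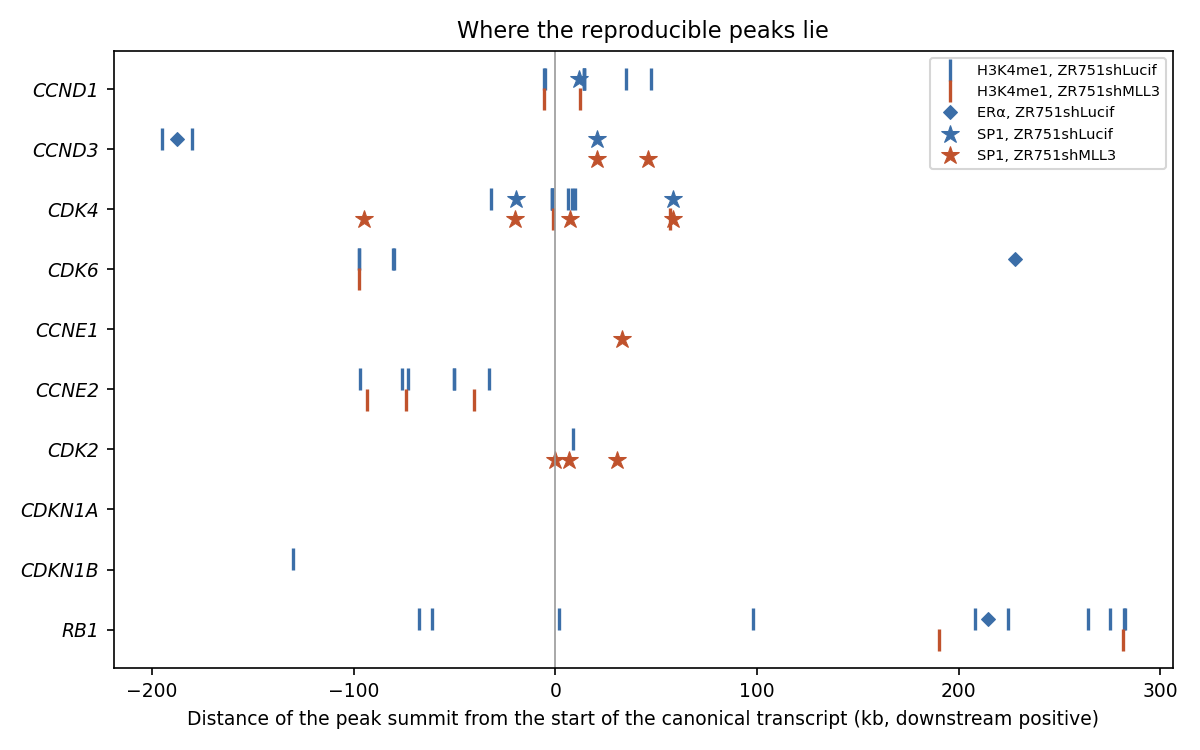
Distance of each reproducible peak summit from the start of the canonical transcript (kb, positive downstream), with 1 row per G1/S gene, ZR751shLucif drawn above and ZR751shMLL3 below each row's line. Shared H3K4me1 positions appear at CCND1, CDK4, CDK6, CCNE2 and the far end of RB1, and the only symbol at a start is an SP1 peak of CDK2.

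ERα, the estrogen-activated receptor, had 3 reproducible peaks near the set in ZR751shLucif and 0 in ZR751shMLL3. Near single genes in the genome 6.48% had fewer ERα peaks in ZR751shMLL3 and 6.66% had more. The 3 peaks were near CCND3, CDK6 and RB1, and none was near CCND1 in either line. The CCND3 peak lay 187548 bp before the canonical start, in an intron of C6orf132. That of CDK6 lay 227801 bp after the start, in an untranslated part of an exon. The RB1 peak lay 214698 bp after the start, in an intron of RCBTB2 and beyond the 178140 bp of the RefSeq RB1 gene. It falls inside RB1 only by the longer annotation. The CCND3 peak is counted because longer CCND3 transcripts start nearer to it.

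The CDK6 peak was the strongest by rank, at 1695 and 246 in the replicate lists. The CCND3 peak ranked 1428 and 22751, and the RB1 peak 16149 and 43184. The RB1 peak was thus weak in both lists. Under the IDR limit of 0.7 used for ERα, the IDR was 0.0074 for the CDK6 peak, 0.233 for CCND3 and 0.657 for RB1. These sites were also looked up in the single lists of the knockdown line. The CDK6 site was covered by a peak of ZR751shMLL3 replicate 1 at rank 3193 and by one of replicate 2 at rank 294443, so it was well ranked in 1 knockdown library without being reproducible. The CCND3 site was covered in replicate 1 only, at rank 135492, and the RB1 site in neither. The central 201 bases of the CCND3 and RB1 peaks are shown because they differ in the receptor's DNA motif, the estrogen response element GGTCANNNTGACC, searched on both strands and written in capitals. The CCND3 peak holds 1 element 11 bases from the summit, and the RB1 peak and the CDK6 peak, which lies in an untranslated region and is not shown, hold 0. The element occurred in 6.01% of the 1265 ZR751shLucif ERα peaks and 8.45% of the 1396 ZR751shMLL3 peaks, and in 0% of windows 1000 bp away. The RB1 sequence instead centres on a run of A followed by TA repeats, with a GC content of 31.8%. Both are from the GRCh37 plus strand, chr6:42096994-42097194 and chr13:49092485-49092685.
CCND3 ERα peak: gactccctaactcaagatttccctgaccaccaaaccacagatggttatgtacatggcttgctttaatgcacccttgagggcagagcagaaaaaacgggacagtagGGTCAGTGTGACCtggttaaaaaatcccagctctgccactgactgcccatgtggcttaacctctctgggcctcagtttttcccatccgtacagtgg
RB1 ERα peak: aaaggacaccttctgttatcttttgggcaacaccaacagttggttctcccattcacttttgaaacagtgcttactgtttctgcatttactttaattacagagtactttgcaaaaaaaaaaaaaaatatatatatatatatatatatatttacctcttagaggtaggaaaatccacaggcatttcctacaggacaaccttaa

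The single ERα libraries were uneven. At an FDR of 0.01 or less, 94 and 4 peaks lay near the set in ZR751shLucif and 0 and 27 in ZR751shMLL3, from lists of 98579, 3797, 764 and 31912 peaks. The shares were 0.0954% and 0.105% against 0% and 0.0846%. The 764 peaks of the lowest library allow a share of up to 0.393% by a count of 0. The difference was -0.058 percentage points (p = 0.333, exact permutation test). Among the 20000 top-ranked peaks it changed sign, to 0.02 percentage points (p = 0.667, exact permutation test). There ZR751shMLL3 replicate 1 had 11 peaks near CCND1 and 7 near RB1, against 0 to 2 and 2 to 4 in the other libraries.

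SP1, a zinc-finger factor that binds GC-rich promoters, had 10 reproducible peaks near the set in ZR751shMLL3 and 4 in ZR751shLucif. The SP1 lists differed in strength. At an FDR of 0.01 or less those of ZR751shLucif held 0 and 0 peaks genome-wide, and those of ZR751shMLL3 held 204178 and 12065. A difference in binding and a difference in the quality of the lists cannot be told apart in these counts. CDK4 had 4 and 2, CDK2 had 3 and 0, CCND3 had 2 and 1, and CCNE1 had 1 and 0, while CCND1 had 0 and 1. The other 5 genes had none. More peaks in ZR751shMLL3 were thus found at 4 of 10 genes and fewer at 1, against 23.0% and 2.59% of all genes with a position. ZR751shMLL3 shared 3 of the 4 ZR751shLucif positions.

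The strongest SP1 peak near the set lay 58236 bp after the start of CDK4, in an exon of OS9, and ranked 4 and 31 in ZR751shMLL3 and 32 and 91 in ZR751shLucif. It was among the best peaks of all 4 libraries. The best SP1 peak near CDK2 (chr12:56360565-56366573, plus strand) ranked 155 and 96 in ZR751shMLL3 and lay 7040 bp after the CDK2 start, by an untranslated region of the neighbour RAB5B. This site was listed in ZR751shLucif too, at ranks 268574 and 1823, without being reproducible there. A weaker one, ranked 35177 and 3583, had its summit 142 bp before the CDK2 start, in an exon of PMEL, and overlapped no listed ZR751shLucif peak. The other SP1 peaks of ZR751shMLL3 with no overlapping peak in either ZR751shLucif list were 1 near CCND3, 1 near CCNE1 and 1 near CDK2.

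The sequences of 4 of these peaks are shown for their SP1 boxes, GGGCGG or its reverse complement CCGCCC, in capitals. They are the parts outside untranslated regions of the best-ranked SP1 peaks near CCND3, CCNE1 and CDK2, and of the peak at the CDK2 start. The last was chosen after its values were seen, as the only peak within 250 bases of a start. The CCND3 and CCNE1 summits lay between genes and past the gene ends, 20583 and 33214 bp after the canonical starts. The CCND3 window also touches an untranslated region of MED20, and the CCNE1 peak ranked 29738 and 2497. The coordinates on the GRCh37 plus strand are chr6:41888878-41889063, chr19:30336012-30336212, chr12:56367554-56367696 and chr12:56360521-56360572.
CCND3 SP1 peak: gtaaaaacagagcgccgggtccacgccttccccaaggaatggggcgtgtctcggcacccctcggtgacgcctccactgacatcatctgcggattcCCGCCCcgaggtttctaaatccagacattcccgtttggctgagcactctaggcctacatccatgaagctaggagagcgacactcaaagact
CCNE1 SP1 peak: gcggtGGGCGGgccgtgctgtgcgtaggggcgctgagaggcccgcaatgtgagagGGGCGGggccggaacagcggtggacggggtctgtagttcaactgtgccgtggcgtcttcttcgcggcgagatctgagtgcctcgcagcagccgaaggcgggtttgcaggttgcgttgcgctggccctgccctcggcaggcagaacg
CDK2 best SP1 peak: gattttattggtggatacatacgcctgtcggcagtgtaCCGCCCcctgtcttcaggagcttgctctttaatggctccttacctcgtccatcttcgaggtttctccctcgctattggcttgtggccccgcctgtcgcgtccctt
CDK2 start SP1 peak: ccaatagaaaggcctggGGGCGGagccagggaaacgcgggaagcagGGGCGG
The CCNE1 peak holds 2 boxes and the CCND3 and best CDK2 peaks 1 each. The stretch at the CDK2 start holds 2, and its whole 201-base window holds 4. A box was present in 29.4% of the 527 ZR751shLucif SP1 peaks and in 38.5% of the 1953 ZR751shMLL3 peaks, against 6.64% and 9.11% of windows 1000 bp away. The CCND1 peak of ZR751shLucif, in an untranslated part of an exon, holds 0.

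In the single SP1 libraries, the larger share near the set was found in 1 library only. Among the 20000 top-ranked peaks, 13 and 61 lay near the set in ZR751shMLL3 and 24 and 22 in ZR751shLucif. The shares were 0.065% and 0.305% against 0.12% and 0.11%, a difference of 0.07 percentage points (p = 1, exact permutation test). Without ZR751shMLL3 replicate 2 the difference was -0.05 percentage points. In that library CDK4 had 19 and CCND1 had 14 of the peaks, against 4 to 8 and 1 to 8 in the other 3.

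Promoter sequences, taken as 300 bases around annotated starts in RefSeq (GRCh38.p14), were used for 6 of the 10 genes. CCND1, CCNE2 and CDK2 had no entry, and the entry for RB1 lay 172699 bp inside the gene, at an internal start, and was left aside. Some entries that were used also lay inside their RefSeq gene. Those of CCND3 lay 1347, 108227 and 110830 bp inside, the second of CDK6 2614 bp and that of CDKN1A 2251 bp. SP1 boxes were found at CCNE1 (7), CDKN1A (4), CDK4 (3) and CDKN1B (1), at 2 of the 3 CCND3 starts (5 and 4) and at 1 of the 2 CDK6 starts (3). A box was present in 44.95% of all 35116 promoters. Neither the E2F letters TTTCGCGC or TTTGGCGC, on either strand, nor an estrogen response element was found in any of these promoters, against 1.148% and 0.057% of all promoters. A match is a description of the letters and does not show binding.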

How the data were processed

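RNA-seq and ChIP-seq were made from 2 libraries per cell line and assay, 18 samples with the 2 input libraries, which were not used here. The deposited RNA values are FPKM, which the authors made on hg19 with TopHat2 2.0.13, Cufflinks 2.2.1 and Cuffnorm 2.2.1 from stranded total RNA, for 23500 RefSeq rows, of which 22447 (95.5%) matched 1 symbol. The authors aligned ChIP reads with BWA 0.7.5a-r405, removed duplicates with Picard 1.126 and called peaks with SPP in each library against 1 input per line. The deposited peak signal differs in scale between lists, so it was used only to rank peaks. The deposited −log10 of the FDR gave the peaks at an FDR of 0.01 or less. On all 7 chromosomes of the genes, peak ends lay within the lengths of GRCh37.

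FPKM were tested as log2(FPKM + 0.5), on rows with a mean above 1, with limma 3.58.1 in R 4.3.3, on the 4 libraries without covariates, with Benjamini-Hochberg adjustment at 0.05. Replicate peaks overlapping by at least 1 bp were fitted with a Gaussian copula mixture (Python 3.11.15, numpy 2.4.6, scipy 1.17.1, pandas 2.3.3). The limits were an IDR of 0.1 for H3K4me1, 0.7 for ERα and 0.5 for SP1. Each limit is the expected share of irreproducible peaks among those kept, so the ERα and SP1 sets may hold many. The H3K4me1 components overlapped, with fitted means 0.815 and 0.692 SD apart, so those counts depend on the fit. Overlapping replicate peaks were found with bedtools 2.31.1, peaks within 100 kb of genes were counted with numpy and pandas, and figures drawn with matplotlib 3.10.9. Shares were compared by exact two-sided permutation tests. Both SP1 lists of ZR751shLucif held 0 peaks at an FDR of 0.01, so SP1 shares used the 20000 top-ranked peaks. The limma and IDR steps were run on simulated data with far larger changes than those of the G1/S genes and with well separated peak components. Small changes and overlapping components, as found here, were not simulated.

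The genes and lists were chosen with earlier results of these data known. Named were all 10 genes and KMT2C, and in each list the 2 highest and 2 lowest log2 fold changes among genes past the filter. Of the regulators, CDK3 and CDC37 had no row of their own. Confidence intervals of fold changes rest on the spread between libraries, and the floor on a share of peaks covers counting error only.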

Additional observations from a re-analysis of the deposited data

How the results depend on the processing

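The 9 tested G1/S genes were refitted under 13 alternatives, which gave 117 log2 fold changes, of which 107 kept their direction. CCND3, CCNE2, CDK2 and CDK4 kept theirs in 13 of 13. Removal of the GC trend reversed CCND1 (-0.26), CDKN1A (-0.19), CDKN1B (0.0592), RB1 (0.00466) and CCNE1 (0.00180), and quantile normalization reversed CCNE1 (0.0424). Leaving out 1 library reversed CCNE1 (0.38 without ZR751shLucif replicate 1), CCND1 (-0.19) and CDKN1A (-0.09) without ZR751shLucif replicate 2, and CDKN1A (-0.14) without ZR751shMLL3 replicate 1. With 1 library left out, CCND1 ran from -0.19 to 0.40, CCNE1 from -0.46 to 0.38 and CDKN1A from -0.14 to 0.28. The cause was not tested. Removal of 1 surrogate variable called 1426 genes higher and 2210 lower, with 2 of the G1/S genes, CCND3 (adjusted p = 0.0211) and CDK4 (adjusted p = 0.0316, limma), but by construction it does not subtract the lost degree of freedom. No G1/S gene was called under the other 12 alternatives. Leaving out 1 library gave 0 to 353 genes higher and 1 to 916 lower, the largest counts without ZR751shLucif replicate 2, and no filter gave 0 lower.

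The replicate numbers did not pair the RNA libraries (correlation of same-numbered deviations 0.0374). A replicate block called 14 genes higher and 19 lower and 0 of the G1/S genes. By replicate number the differences in share were -0.0405 and -0.0117 percentage points for H3K4me1, -0.0954 and -0.0207 for ERα, and -0.055 and 0.195 for SP1.

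H3K4me1 peaks near the set numbered 126 in ZR751shLucif and 12 in ZR751shMLL3 at an FDR of 0.01 in both lists (of 85170 and 14485 in all), 23 and 2 at an IDR of 0.05 (of 18549 and 3999), 20 and 2 where replicate peaks shared 50% of the shorter (of 18631 and 4802), and 26 and 6 within 50 kb. When matching was limited to the best 50000 peaks per library, the gap was smaller, 28 and 15 (of 20669 and 13931). ERα peaks in ZR751shLucif numbered 1 at an FDR of 0.01 and 1 at an IDR of 0.05. In ZR751shMLL3 they numbered 2 among the 50000 top-ranked peaks and 1 with the stricter overlap, so the absence of ERα there depends on the matching. With 1 library left out, the difference in share ran from -0.0398 to -0.0124 for H3K4me1, from -0.100 to -0.0157 for ERα and from -0.05 to 0.19 for SP1. The ERα difference was 0.02 among the 20000 top-ranked peaks. FPKM without counts leave the depth of each gene unknown.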
